A study of Mus musculus with 3 samples.

Results

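Endothelial cells (ECs) of the capillaries take up fatty acids that are freed from circulating lipoproteins, and 8 genes of this route were measured across the cell types of the developing mouse lung. The genes were chosen by symbol and are *Gpihbp1*, *Lpl*, *Cd36*, *Fabp4*, *Scarb1*, *Cd300lg*, *Angptl4*, and *Pparg*, 8 of the 28692 genes counted. The data are scRNA-Seq libraries of whole lung from 3 C57BL/6 mice at P14, numbered 2, 3, and 4. All mice were kept in room air from P1 to P14 and no engineered allele is named for them, so there is 1 group, and the mice are the replicates. Counts are unique molecular identifiers (UMIs), tags that mark each captured transcript so that its copies are counted once. No comparison between conditions was possible, and the comparisons below are between cell types of the same 3 lungs.

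In the capillary, GPIHBP1 on the endothelial surface binds lipoprotein lipase (LPL), which is made largely by parenchymal cells and macrophages and cleaves the triglycerides of lipoproteins. The fatty acids released enter cells by way of the scavenger receptor CD36 and are bound in the cytoplasm by FABP4, while SCARB1 takes up lipid from high-density lipoprotein. ANGPTL4 inhibits LPL, and the nuclear receptor PPARG controls many genes of lipid storage and is required for the maturation of alveolar macrophages. CD300LG is a glycoprotein of the endothelial surface.

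On GRCm38, *Gpihbp1* lies on chromosome 15 from 75596628 to 75599481, *Lpl* on chromosome 8 from 68880491 to 68907448, *Fabp4* on chromosome 3 from 10204088 to 10208576, and *Cd300lg* on chromosome 11 from 102041509 to 102055620. *Cd36* and *Scarb1* are both on chromosome 5, from 17781690 to 17888801 and from 125277087 to 125341094. *Angptl4* is on chromosome 17 from 33773750 to 33781830, and *Pparg* is on chromosome 6 from 115360951 to 115490399. Another gene model, *Gm44079*, lies on the strand opposite *Pparg* and is also among the genes counted, and Gm42633 overlaps *Scarb1* on the same strand. Promoters were found in the RefSeq table for 2 of the 8 genes, *Cd36* and *Pparg*, and are shown because PPARG binds, as a pair with RXR, to repeats of the motif AGGTCA. The motif is in capitals on either strand, the build is GRCm38.p6, and each sequence runs 5′ to 3′ from 250 bases before the start of transcription to 50 after it.
*Cd36*, chr5:17835847-17836146, minus strand: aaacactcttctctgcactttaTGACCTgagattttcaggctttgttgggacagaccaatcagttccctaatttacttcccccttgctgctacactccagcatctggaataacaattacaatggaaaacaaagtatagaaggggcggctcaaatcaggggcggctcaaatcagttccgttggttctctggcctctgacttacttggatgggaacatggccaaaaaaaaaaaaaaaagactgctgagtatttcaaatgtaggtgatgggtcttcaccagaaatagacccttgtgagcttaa
*Pparg*, chr6:115360894-115361193, plus strand: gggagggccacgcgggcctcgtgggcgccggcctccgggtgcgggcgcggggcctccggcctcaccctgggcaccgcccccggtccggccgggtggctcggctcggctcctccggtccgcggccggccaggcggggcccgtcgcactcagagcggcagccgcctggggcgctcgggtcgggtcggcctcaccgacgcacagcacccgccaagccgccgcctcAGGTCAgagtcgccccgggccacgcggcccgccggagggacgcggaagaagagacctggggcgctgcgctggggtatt
For *Pparg*, the first of 3 promoters in the table is shown. Of those not shown, the promoter starting at 115362099 holds 1 copy of the motif and the promoter starting at 115421816 holds 0. Each of the 2 sequences shown holds 1 copy of the motif, as does 16.3% of the 32851 promoters in the table, and neither holds 2 copies in the same direction spaced by 1 base, which 0.0396% of the promoters do. A match is a description of the letters and not a binding site.

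After cells with fewer than 200 detected genes or more than 20% mitochondrial UMIs were left out, 7642 of 9644 cells remained (2386, 2601, and 2655 in mice 2, 3, and 4), with 20804836 to 23442355 UMIs per mouse, and the median cell held 6033.5 UMIs. Clusters were named from marker genes that include none of the 8 genes, and the 8 genes were kept out of the genes used for clustering. This gave 961 ECs, 1285 epithelial, 1537 stromal, and 3019 immune cells in 20 cell types, with 840 cells left unnamed. The *Aplnr*-type capillary ECs had 8963 to 9258 CPM (UMIs of a gene or list per 1000000 UMIs of the cells) for the 5 EC markers, against 21.7 to 89.6 in alveolar type 2 (AT2)-like and 23.6 to 58.8 in alveolar macrophage-like cells. The mice differed in their cell type makeup, with 884 of 1784 B-cell-like cells in mouse 3. Levels below are CPM of the UMIs summed over the cells of a type in a mouse, given as mean ± SD over 3 mice, and UMIs are not corrected for transcript length because only the 3′ end was counted. The lymphatic-like ECs were only 23 cells (11, 7, and 5 in mice 2, 3, and 4), 12 of which were marked as doublets (droplets with more than 1 cell), so their values are given without a test.

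The 8 genes fell into groups by the class of cell that held their UMIs. ECs held 91.1% of 7123 *Gpihbp1* UMIs, 88.0% of 4377 *Fabp4* UMIs, 76.4% of 297 *Cd300lg* UMIs, and 69.4% of 3239 *Scarb1* UMIs. *Cd36*, the most abundant with 25553 UMIs, was divided between ECs (46.8%) and epithelial cells (45.4%). *Lpl* (3802 UMIs) was spread over stromal cells (32.0%), ECs (26.3%), epithelial cells (22.1%), and immune cells (16.4%). Stromal cells held 86.6% of 1999 *Angptl4* UMIs, and immune cells held 60.6% of 254 *Pparg* UMIs. These shares are of the cells kept. The cell filter left out 992 *Lpl* and 114 *Pparg* UMIs. Of these, 775 and 90 were in droplets with alveolar macrophage markers, described below. Class shares and levels with these droplets were not computed.

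**Figure D1:**
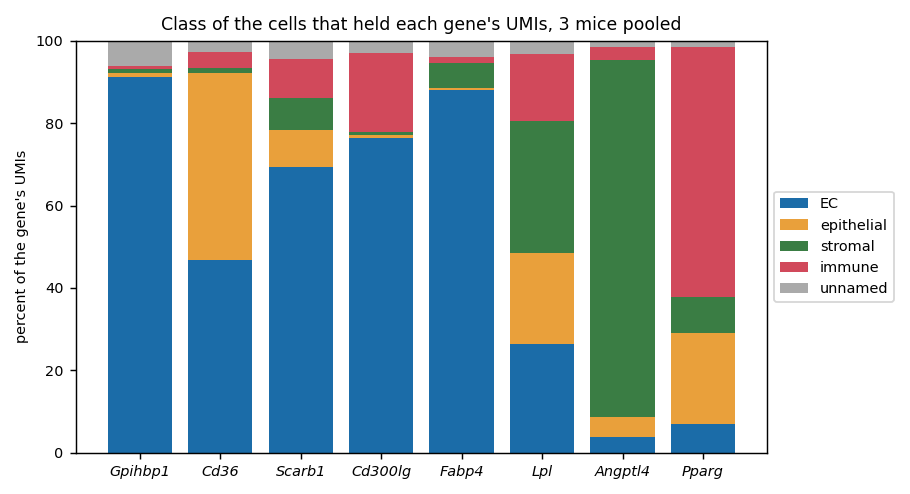
Stacked bars of the percent of each gene's UMIs in the cells kept (y axis, 0 to 100) that lay in ECs, epithelial, stromal, immune, and unnamed cells, 3 mice pooled. *Gpihbp1* (91.1%) and *Fabp4* (88.0%) were mostly endothelial, *Angptl4* (86.6%) mostly stromal, and *Lpl* was spread over 4 classes.

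Levels were compared between classes with edgeR's quasi-likelihood test on counts summed per mouse, with Benjamini-Hochberg adjustment over 14250 genes and a threshold of 0.05. The classes differ in most genes, since 66.2% of all genes tested passed in ECs against epithelial cells, 55.4% against stromal cells, and 69.5% against immune cells. Of the 8 genes, 6 passed against epithelial cells, 7 against stromal cells, and 7 against immune cells. Among the cells kept, *Gpihbp1*, *Lpl*, *Cd36*, *Fabp4*, *Scarb1*, and *Cd300lg* were higher in ECs in all 3 comparisons. *Gpihbp1* was at 768, 619.7, and 624 CPM in the ECs of mice 2, 3, and 4 and at 2.95 ± 2.87 CPM in epithelial cells, a log2 fold change of 7.23 (SE 0.42, adjusted p = 7.10e-10, edgeR). *Cd36* was higher than in epithelial cells (1240.5 ± 29.98 against 510.3 ± 54.6 CPM, log2 fold change 0.82, SE 0.17, adjusted p = 0.000532, edgeR) and than in stromal cells (15.1 ± 6.03 CPM, log2 fold change 6.26, SE 0.22). *Angptl4* was lower in ECs than in stromal cells (8.001 ± 1.92 against 97.9 ± 14.7 CPM, log2 fold change -3.73, SE 0.17, adjusted p = 8.17e-11, edgeR), and *Pparg* was lower in ECs than in immune cells (2.10 ± 1.95 against 10.9 ± 1.25 CPM, log2 fold change -2.74, SE 0.46, adjusted p = 7.76e-05, edgeR). *Lpl* had the smallest log2 fold change of the 6 against stromal cells, 103 ± 8.12 CPM in ECs against 69.3 ± 8.42 CPM in stromal cells (log2 fold change 0.46, SE 0.12, adjusted p = 0.00348, edgeR), and it was no longer called without mouse 4 (adjusted p = 0.0745). *Fabp4* varied widely between the ECs of the mice, with 333, 816, and 169.9 CPM. Of the 3850 *Fabp4* UMIs in ECs, 2578 were in the 23 lymphatic-like cells, and venous-like ECs had 897 ± 48.1 CPM.

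**Figure D2:**
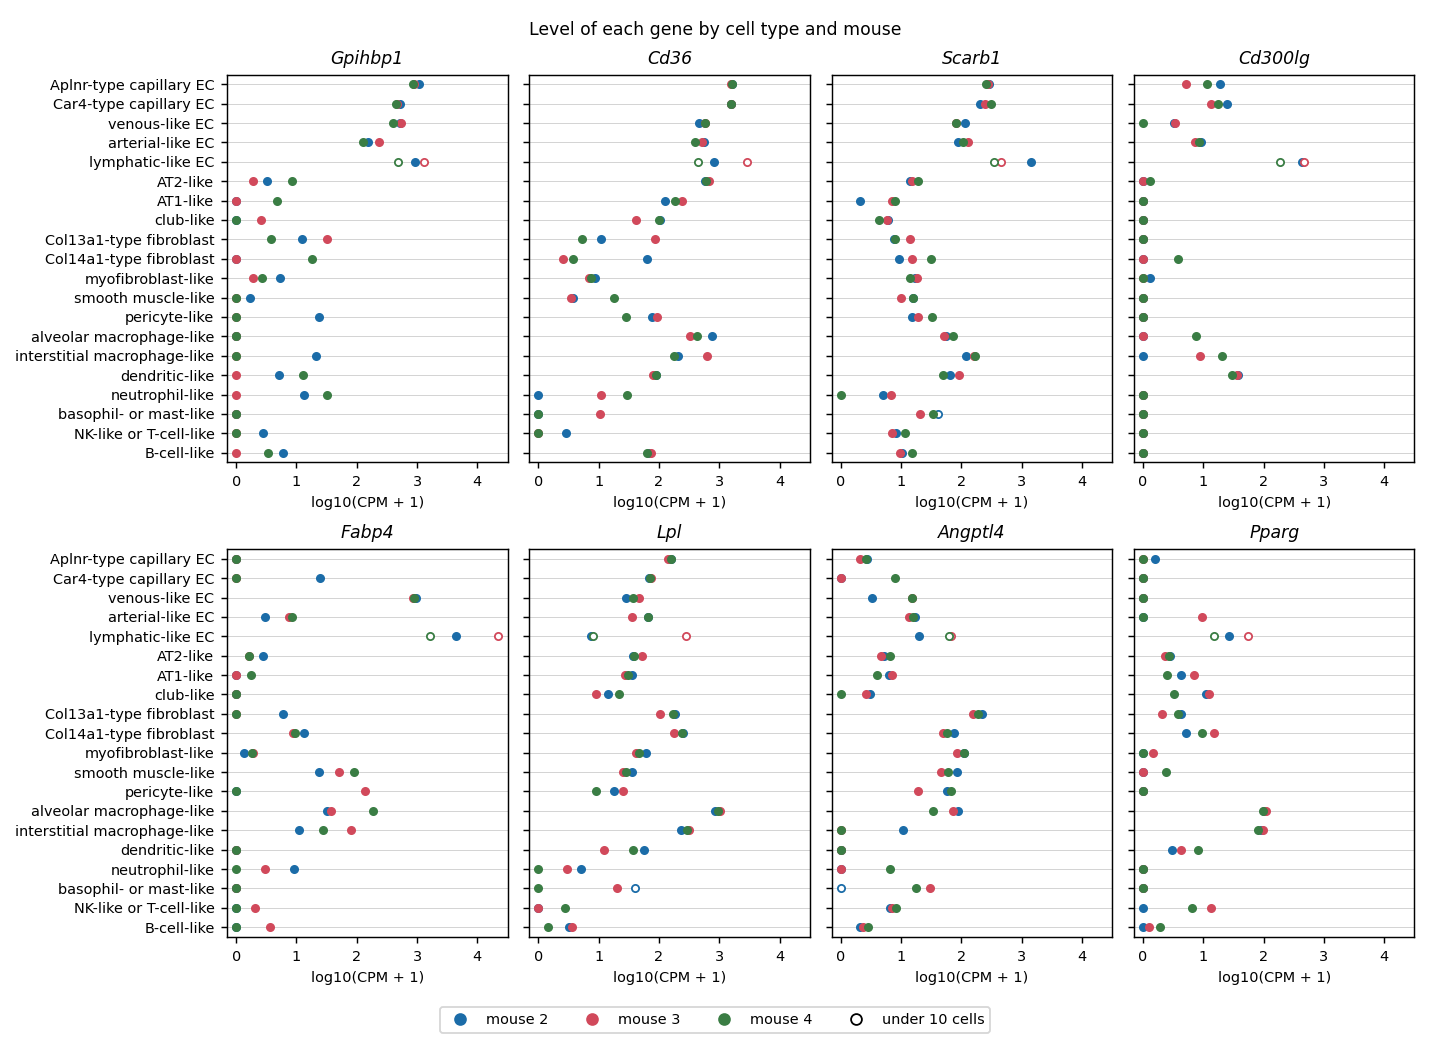
Each panel plots one gene as log10(CPM + 1) in 20 cell types, with a point per mouse and open points for sums of fewer than 10 cells. *Gpihbp1* was at 475 CPM or more on average in both capillary types and below 16 CPM outside the endothelium, whereas *Lpl* was highest in alveolar macrophage-like cells and *Angptl4* in *Col13a1*-type fibroblasts.

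Among EC types with at least 10 cells in each mouse, *Gpihbp1* was highest in the *Aplnr*-type capillary ECs, the general capillary cells. The few lymphatic-like ECs had 904 ± 409 CPM over the mice, and 912 CPM in mouse 2, within the *Aplnr*-type range. *Gpihbp1* was lower in the *Car4*-type cells, which are known as aerocytes and lie against the thin gas exchange surface. It was at 1057, 890.0, and 860.0 CPM in the 437 *Aplnr*-type cells of mice 2, 3, and 4 and at 513, 471, and 441 CPM in the 169 *Car4*-type cells. The 2 groups of values did not overlap, and the log2 fold change was 1.03 (SE 0.25, adjusted p = 0.00377, edgeR over 13352 genes). *Lpl* changed in the same direction, with 156, 141, and 155 CPM in *Aplnr*-type and 67.5, 72.6, and 70.0 CPM in *Car4*-type cells (log2 fold change 1.16, SE 0.24, adjusted p = 0.000403, edgeR). These were 2 of the 8 genes, where 8.58% of all genes tested passed. The *Gpihbp1* call was lost without mouse 2 (adjusted p = 0.0725, edgeR) and with DESeq2 (adjusted p = 0.828), while its log2 fold change stayed at 0.97 and 0.96. *Cd36* did not pass, at 1648, 1580.3, and 1617 CPM against 1529.6, 1588, and 1563 CPM (log2 fold change 0.10, SE 0.36), nor did *Scarb1*, the receptor for high-density lipoprotein, at 273 ± 14.5 against 253 ± 53.3 CPM (log2 fold change 0.16, SE 0.15). The values of these 2 receptors overlapped between the capillary types. *Fabp4*, at 0 against 11 UMIs, did not pass (adjusted p = 0.116, edgeR). It was called lower in *Aplnr*-type cells with DESeq2 (adjusted p = 0.0306) and without a filter on low counts (adjusted p = 5.39e-06, edgeR). The 11 UMIs lay in 2 cells of mouse 2, with 10 in 1 cell of a shallow subcluster described below. Without mouse 2 the log2 fold change was 0. With doublets left out, 8 lymphatic-like cells were counted as *Aplnr*-type, and *Fabp4* was called higher in *Aplnr*-type cells (log2 fold change 4.00).

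A *Gpihbp1* UMI was found in 97.6% ± 1.12% of *Aplnr*-type cells (median 7940 UMIs per cell) and in 39.4% ± 3.84% of *Car4*-type cells (median 6336 UMIs), and 0.583% ± 0.519% of B-cell-like cells (median 3960.5 UMIs), which should lack the transcript, gave the background. With cells of at least 1000 UMIs thinned to 1000 UMIs, the shares were 56.7% ± 3.88% and 22.4% ± 3.87%. The *Car4*-type cells include a shallow subcluster (73 cells, median 865 UMIs), most of which the thinned share leaves out. A *Gpihbp1* UMI was found in 16.2% ± 0.740% of its cells and in 56.7% ± 5.44% of the other *Car4*-type cells, whose level of 470.0 CPM was close to the 475 CPM of all. *Lpl* and *Gpihbp1* were found in the same cell in 54.1% ± 3.33% of *Aplnr*-type and 16.1% ± 1.57% of *Car4*-type cells, and *Cd36* and *Gpihbp1* in 97.4% ± 0.794% and 37.6% ± 3.70%. A *Cd36* UMI was found in 436 of 437 *Aplnr*-type cells.

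In arterial-like ECs, *Gpihbp1*, *Lpl*, *Cd36*, and *Scarb1* were lower than in *Aplnr*-type cells and *Angptl4* was higher. In the 161 cells, *Gpihbp1* was at 154, 230.0, and 126 CPM, *Lpl* at 63.9, 34.1, and 64.6 CPM, *Cd36* at 561, 524, and 395 CPM, and *Scarb1* at 85.9, 126, and 107 CPM, and all of these values were below those of *Aplnr*-type cells. Of the 8 genes, 5 passed between *Aplnr*-type and arterial-like ECs, against 15.6% of all genes tested. *Gpihbp1* was higher in *Aplnr*-type cells by a log2 fold change of 2.46 (SE 0.28, adjusted p = 9.52e-10, edgeR), *Cd36* by 1.70 (SE 0.38), *Lpl* by 1.45 (SE 0.25), and *Scarb1* by 1.35 (SE 0.17). *Angptl4* was lower in *Aplnr*-type cells, at 1.48 ± 0.378 against 14.5 ± 1.61 CPM (7 and 22 UMIs, log2 fold change -3.12, SE 0.66, adjusted p = 0.000309, edgeR). With DESeq2 the calls for *Gpihbp1* (adjusted p = 0.239) and *Cd36* (adjusted p = 0.120) were lost at log2 fold changes of 2.38 and 1.63. *Fabp4*, at 0 against 8 UMIs, did not pass (adjusted p = 0.160, edgeR), but was called lower in *Aplnr*-type cells with DESeq2 (adjusted p = 0.0367) and without a filter on low counts (adjusted p = 0.000133, edgeR). It was called higher with doublets left out (log2 fold change 4.89), where lymphatic-like cells were again counted as *Aplnr*-type.

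The arterial-like cells were not uniform in these genes. They comprised a subcluster of 102 cells led by *Atp13a3*, *Cxcl12*, and *Gja5*, and a subcluster of 59 cells led by *Cytl1*, *Sfrp1*, and *Mgp*, which were singled out after their values had been seen and were not tested. In the first, *Cd36* was at 893, 1052, and 788 CPM, *Gpihbp1* at 245, 478, and 260.1 CPM, and *Lpl* at 105, 72.8, and 134 CPM. In the second, *Cd36* was at 41.0, 60.0, and 28.5 CPM, and *Gpihbp1* had 5 UMIs in all. The second subcluster held 0 *Lpl* UMIs, which allows up to 4.14 CPM (3 UMIs over the group, counting error only), although its cells were deeper (median 8413 against 5882 UMIs). *Angptl4* ran the other way, at 3.27, 4.55, and 7.65 CPM in the first and 35.9, 20.01, and 21.4 CPM in the second, on 4 and 18 UMIs. The values of the mice did not overlap between the subclusters for these 4 genes, and the share of all genes without overlap was not measured.

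Venous-like ECs were set apart by *Fabp4*, the cytoplasmic carrier of fatty acids. Its level in the 106 venous-like cells was 945, 849, and 898 CPM, while the 437 *Aplnr*-type cells held 0 *Fabp4* UMIs, which allows up to 0.669 CPM. *Fabp4* was thus at least 1342-fold lower in *Aplnr*-type cells (3 UMIs over the group as the floor, adjusted p = 5.13e-19, edgeR). With doublets left out before clustering, 8 lymphatic-like cells were counted as *Aplnr*-type, and the log2 fold change of *Fabp4* was -3.41 (adjusted p = 1.18e-08, edgeR). *Car4*-type cells held 11 *Fabp4* UMIs, all in mouse 2, and arterial-like cells held 8. Together with *Fabp4*, 7 of the 8 genes passed between *Aplnr*-type and venous-like ECs, against 13.9% of all genes tested. *Lpl* (36.1 ± 9.12 CPM in venous-like cells, log2 fold change 2.04, SE 0.28), *Cd36* (542 ± 65.2 CPM, 1.55, SE 0.38), *Scarb1* (92.5 ± 19.9 CPM, 1.52, SE 0.18), and *Gpihbp1* (492 ± 77.2 CPM, 0.90, SE 0.25, adjusted p = 0.00861, edgeR) were higher in *Aplnr*-type cells. *Cd300lg* was higher in *Aplnr*-type cells on 54 against 2 UMIs, and *Angptl4* was lower on 7 against 13 UMIs. The *Gpihbp1* and *Cd300lg* calls were lost without mouse 2 or mouse 4, and the *Angptl4* call without mouse 3 or mouse 4. With DESeq2, *Gpihbp1* (adjusted p = 0.846), *Cd36* (adjusted p = 0.203), and *Cd300lg* (adjusted p = 0.0740) did not pass. Between *Car4*-type and venous-like cells, *Gpihbp1* overlapped (475 ± 36.1 and 492 ± 77.2 CPM).

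**Figure D3:**
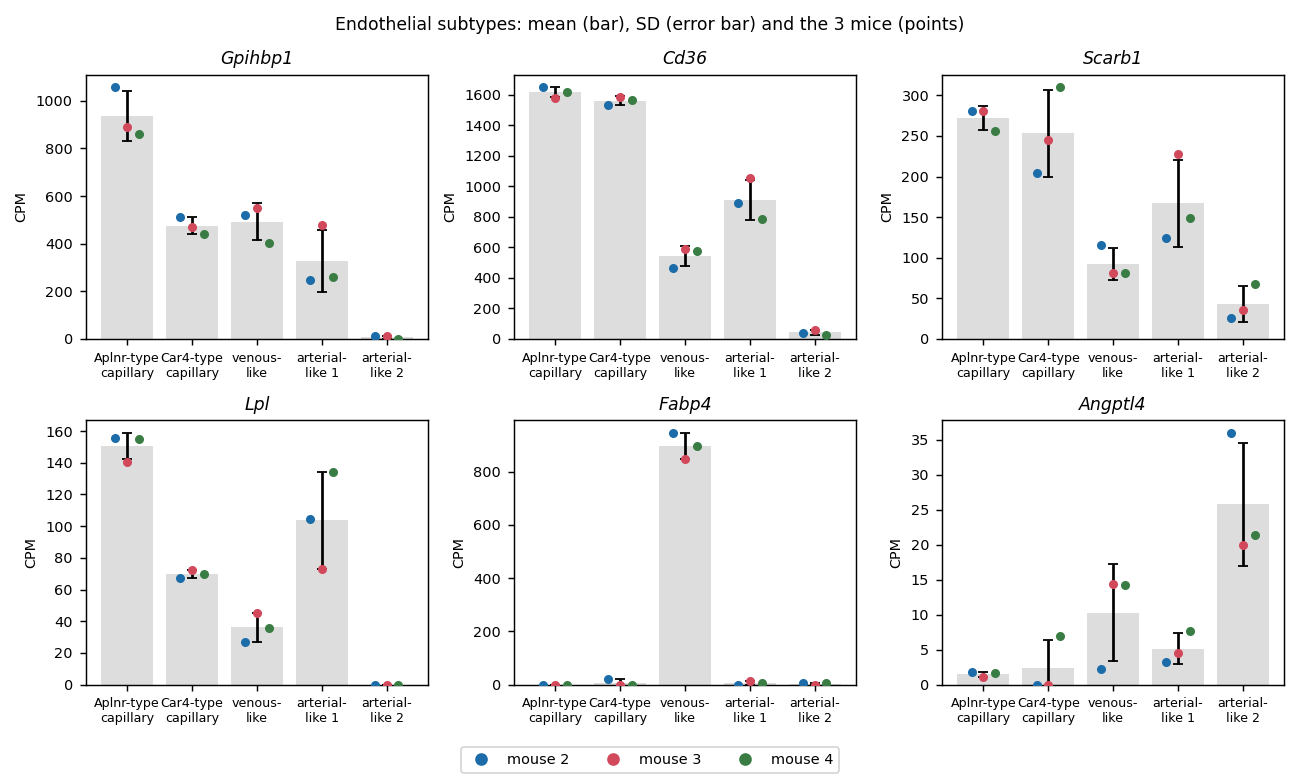
Bars give the mean CPM over 3 mice, error bars the SD, and points the mice for 6 genes in *Aplnr*-type and *Car4*-type capillary, venous-like, and 2 subclusters of arterial-like ECs (1, led by *Atp13a3*; 2, led by *Cytl1*). *Fabp4* was at 897 ± 48.1 CPM in venous-like cells and at 0 UMIs in *Aplnr*-type cells, and *Lpl* was at 0 UMIs in the second arterial-like subcluster.

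Among the few lymphatic-like ECs, *Fabp4* was higher still, at 4484 CPM in mouse 2 (11 cells) and 21994 and 1659.8 CPM in the 7 and 5 cells of mice 3 and 4. These 23 cells held 58.9% of all *Fabp4* UMIs and 43.4% of all *Cd300lg* UMIs. *Fabp4* was also among the leading genes of this cluster, beside *Ccl21a*, *Mmrn1*, and *Prox1*, although it was not used for clustering. *Cd300lg* was at 431, 459, and 187 CPM there, against 33.5 ± 4.14 CPM in dendritic-like cells, the next type, and 17.3 ± 5.45 CPM in *Car4*-type cells. *Scarb1* was at 1431, 459, and 346 CPM, all above the 273 ± 14.5 CPM of *Aplnr*-type cells. Without the marked doublets it was at 1922, 496, and 224 CPM, and mouse 4 then fell below the *Aplnr*-type level. Pooled over the mice, *Fabp4* was at 6846 CPM with and 5529 CPM without the 12 marked doublets, and *Cd300lg* at 343 and 327 CPM. When all marked doublets were left out before clustering, the remaining 11 cells no longer formed a cluster, and 8 joined the *Aplnr*-type and 3 the venous-like cells. In mouse 2 the lymphatic-like cells had 4123 CPM of the lymphatic-like marker list and 4111 CPM of the *Aplnr*-type marker list. *Aplnr*-type cells had 545 and 8074 CPM of these lists on average. Whether the *Aplnr*-type markers in the lymphatic-like cells moved these levels was not tested.

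Outside the endothelium, *Cd36* was high in AT2-like cells, which make surfactant lipid. Its level was 574, 682, and 601 CPM in the AT2-like cells of mice 2, 3, and 4, and 98.5% ± 1.01% of these cells had a *Cd36* UMI (median 16250 UMIs per cell). The AT2-like values overlapped those of venous-like ECs and stood below both capillary types. In AT1-like cells, which cover most of the gas exchange surface, *Cd36* was at 124, 240.0, and 186 CPM (log2 fold change 2.02 for AT2-like against AT1-like, SE 0.39, adjusted p = 3.25e-05, edgeR). Of the 8 genes, 3 passed in this comparison, against 32.1% of all genes tested. *Scarb1* was also higher in AT2-like cells (14.9 ± 2.55 against 4.63 ± 3.11 CPM, log2 fold change 1.88, SE 0.38), as was *Lpl* (41.4 ± 7.74 against 29.98 ± 4.205 CPM, log2 fold change 0.66, SE 0.25, adjusted p = 0.0388, edgeR). The *Lpl* call was lost whichever mouse was left out. The AT1-like cells had 17840 CPM of the AT1-like marker list on average, but also 64937 CPM of the AT2-like list. AT2-like cells had 206438 CPM of the AT2-like list. Whether the AT2-like markers in the AT1-like cells moved these levels was not tested. *Gpihbp1* was at 3.57 ± 3.54 CPM in AT2-like cells and at 0.935 ± 0.140 CPM without their 27 marked doublets, and nearly all of the cells with *Cd36* there lacked a *Gpihbp1* UMI (96.6% of AT2-like cells, mean over mice).

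*Cd36* was measured in B-cell-like cells too, so that these could not serve as its background. It was at 66.9, 72.0, and 62.8 CPM in B-cell-like and at 1.81, 0, and 0 CPM in NK- or T-cell-like cells. A *Cd36* UMI was found in 20.8% ± 1.06% of B-cell-like cells and 0.450% ± 0.780% of NK- or T-cell-like cells, which were deeper (median 5994 against 3960.5 UMIs per cell). Dendritic-like cells had 78.6 to 87.1 CPM, above the B-cell-like values, and club-like cells (40.3 to 104 CPM) overlapped both. By its mean, *Cd36* ran from *Aplnr*-type and *Car4*-type ECs, which overlapped, through AT2-like, venous-like, alveolar macrophage-like, arterial-like, and interstitial macrophage-like cells to AT1-like cells. From AT2-like to AT1-like cells, each type overlapped the next, and types further down were below 100 CPM. Lymphatic-like ECs are left out of this order, since they had 823 CPM in mouse 2 but 1382 ± 1305 CPM over the mice.

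Among the cell types, *Lpl* was highest in alveolar macrophage-like cells. These cells had 839.9, 1018, and 934 CPM, and a UMI was found in 84.8% ± 12.1% of them, against 0.498% ± 0.296% of B-cell-like cells. Interstitial macrophage-like cells had 227, 309, and 286 CPM, below every alveolar macrophage-like value (log2 fold change 2.02 for alveolar against interstitial, SE 0.23, adjusted p = 2.91e-09, edgeR). The interstitial values overlapped those of *Col14a1*-type fibroblasts (176.0 to 249.5 CPM). Of the 8 genes, 3 passed between the macrophage types, against 13.7% of all genes tested. *Angptl4*, the inhibitor of LPL, was higher in alveolar macrophage-like cells as well, at 86.3, 71.6, and 32.7 CPM against 1 UMI in all interstitial cells (log2 fold change 4.78, SE 1.01, adjusted p = 0.000424, edgeR). *Scarb1* was lower, at 59.3 ± 11.004 against 149 ± 26.8 CPM (log2 fold change -1.10, SE 0.37, adjusted p = 0.0365, edgeR), a call that was lost whichever mouse was left out. *Cd36* varied between mice in both types (754, 322, and 424 CPM against 207, 625, and 176 CPM) and did not pass.

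Among the named types, the level of *Pparg* was highest in the macrophages, which held 49 and 33 of its 254 UMIs. It was 102, 107, and 98.0 CPM in alveolar and 88.7, 94.98, and 78.1 CPM in interstitial macrophage-like cells (log2 fold change 0.51, SE 0.50, adjusted p = 0.637, edgeR). Epithelial cells held 56 *Pparg* UMIs, and 48 (18.9%) were in 66 immune cells that matched no type and were led by *Il1rl1*, *Cxcr6*, and *Arg1*, with 65.8, 155, and 78.1 CPM. In *Aplnr*-type and *Car4*-type cells *Pparg* had 1 and 0 UMIs. Zero UMIs in *Car4*-type cells allow up to 2.17 CPM, so that low levels were not detectable at this depth.

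Against *Aplnr*-type capillary ECs, 7 of the 8 genes passed in alveolar macrophage-like cells, where 39.2% of all genes tested passed and the median gene had a log2 fold change of -0.35. *Lpl* was higher in the macrophages by a log2 fold change of 2.87 (SE 0.19, adjusted p = 1.30e-18, edgeR), *Angptl4* by 5.45 (SE 0.62), and *Pparg* by 8.40 (SE 0.77). *Fabp4* was at least 125-fold higher (39 UMIs, 28 of them in mouse 4, against 0). With doublets left out before clustering, 8 lymphatic-like cells were counted as *Aplnr*-type, and the *Fabp4* log2 fold change turned to -0.32. *Cd36* was lower by a log2 fold change of -1.49 (SE 0.41) and *Scarb1* by -1.97 (SE 0.28), and *Gpihbp1*, with 0 UMIs in the macrophages, was at least 148-fold lower. The *Cd36* call was lost with DESeq2 (adjusted p = 0.151).

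The alveolar macrophage-like cells kept were few, and the cell filter left out more droplets with their markers than it kept. Of the 2002 droplets left out, 2000 had more than 20% mitochondrial UMIs. Among them, 314 (76, 154, and 84 in mice 2, 3, and 4) held at least 10 UMIs of the 7 alveolar macrophage markers, a threshold set after the data had been seen, against 71 alveolar macrophage-like cells kept and 102 kept cells of any type with as many marker UMIs. These droplets had a median of 3350 UMIs and 36.2% mitochondrial UMIs, against a median of 12.3% mitochondrial UMIs in the alveolar macrophage-like cells kept. Mitochondrial UMIs count in the CPM total, and levels without them were not computed, so the CPM of the 2 sets are not on the same footing. *Lpl* was at 644 ± 138 CPM in the droplets (range 515 to 789), against 931 ± 89.3 CPM in the cells kept, and *Pparg* at 77.9 ± 8.33 against 102 ± 4.77 CPM. They held 78.1% of the 992 *Lpl* UMIs left out, and 20.7% of all deposited *Lpl* UMIs and 31.0% of all *Pparg* UMIs were left out, against 1.06% for *Gpihbp1*. The class shares and the comparisons between classes did not include these UMIs.

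**Figure D4:**
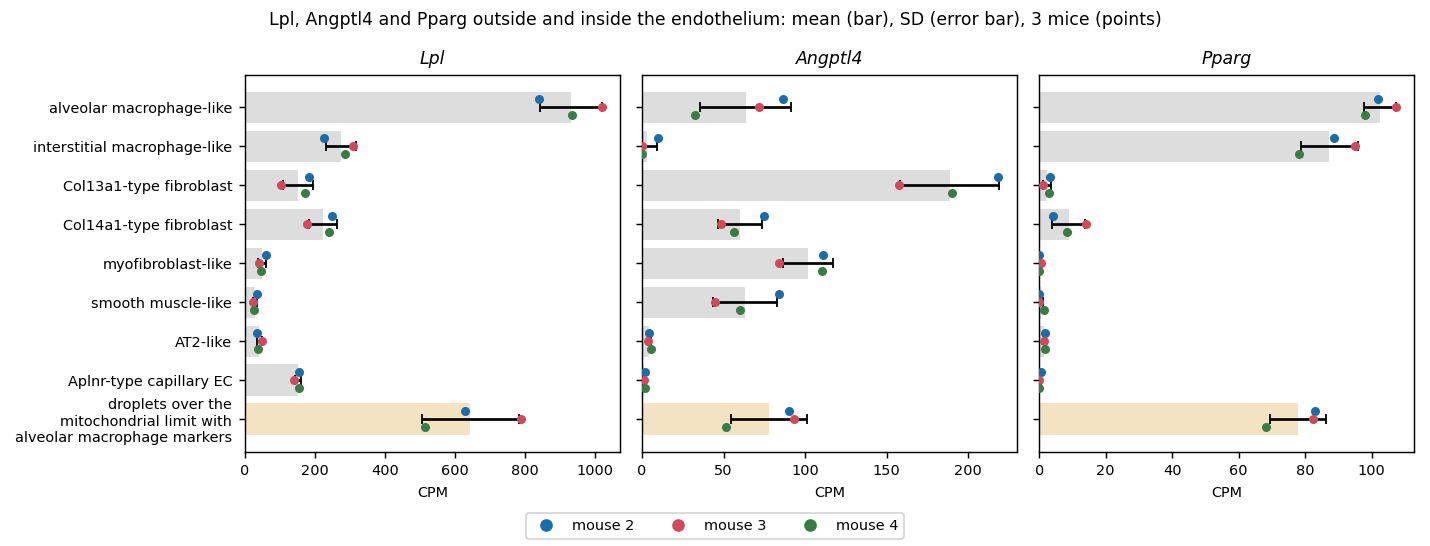
Bars give mean CPM over 3 mice, error bars the SD, and points the mice for *Lpl*, *Angptl4*, and *Pparg* in 8 cell types and, at the bottom, in the droplets left out for mitochondrial UMIs that held alveolar macrophage markers. *Lpl* and *Pparg* were highest in alveolar macrophage-like cells, and *Angptl4* was highest in *Col13a1*-type fibroblasts at 189 ± 30.3 CPM. CPM totals include mitochondrial UMIs, a median of 36.2% in the droplets left out and 12.3% in the alveolar macrophage-like cells.

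The stroma held both the lipase and its inhibitor. *Angptl4* was at 218, 157, and 190.3 CPM in *Col13a1*-type fibroblasts, which include the lipid-storing fibroblasts of the alveolus, and at 111, 83.9, and 110.2 CPM in myofibroblast-like cells. These groups did not overlap (log2 fold change 0.96, SE 0.17, adjusted p = 1.07e-05, edgeR). Smooth muscle-like cells had 62.9 ± 19.6 CPM, *Col14a1*-type fibroblasts 59.9 ± 13.5 CPM, and pericyte-like cells 47.7 ± 25.8 CPM, and these 3 overlapped. Of the 8 genes, 5 passed between *Col13a1*-type fibroblasts and myofibroblast-like cells, against 28.1% of all genes tested, and *Lpl* was among them (182, 104, and 171 against 60.3, 40.6, and 45.5 CPM, log2 fold change 1.69, SE 0.20, adjusted p = 6.15e-10, edgeR). *Gpihbp1* and *Cd36* were also called higher in *Col13a1*-type fibroblasts, but on values that were high in mouse 3 only (31.3 and 84.1 CPM, against at most 11.4 and 9.76 CPM in the others). Of 210 *Col13a1*-type cells, 28 were marked as doublets, and without them 6 *Gpihbp1* and 6 *Cd36* UMIs were left, of 38 and 87. *Pparg* was called on 5 against 1 UMIs and was lost without mouse 2 or 4.

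Between the fibroblast types, 2 of the 8 genes passed, against 20.1% of all genes tested. *Angptl4* was higher in *Col13a1*-type than in *Col14a1*-type fibroblasts (log2 fold change 1.59, SE 0.23, adjusted p = 3.74e-07, edgeR), and *Lpl* was lower (152 ± 42.5 against 222 ± 40.2 CPM, log2 fold change -0.62, SE 0.20, adjusted p = 0.0215, edgeR). The *Lpl* values of the fibroblast types overlapped, and the call was lost without mouse 2 or mouse 4. Against *Aplnr*-type capillary ECs, 5 of the 8 genes passed in *Col13a1*-type fibroblasts, where 43.5% of all genes tested passed. *Angptl4* was higher by a log2 fold change of 6.93 (SE 0.34, adjusted p = 3.24e-23, edgeR), and *Gpihbp1* (log2 fold change -5.64, SE 0.38), *Cd36* (-5.30, SE 0.48), and *Scarb1* (-4.70, SE 0.25) were lower, with *Cd300lg* at least 8.18-fold lower. *Lpl* did not pass (152 ± 42.5 against 150.5 ± 8.38 CPM, log2 fold change 0.13, SE 0.19), so that the lipase was at overlapping levels in these fibroblasts and in the capillary cells.

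**Figure D5:**
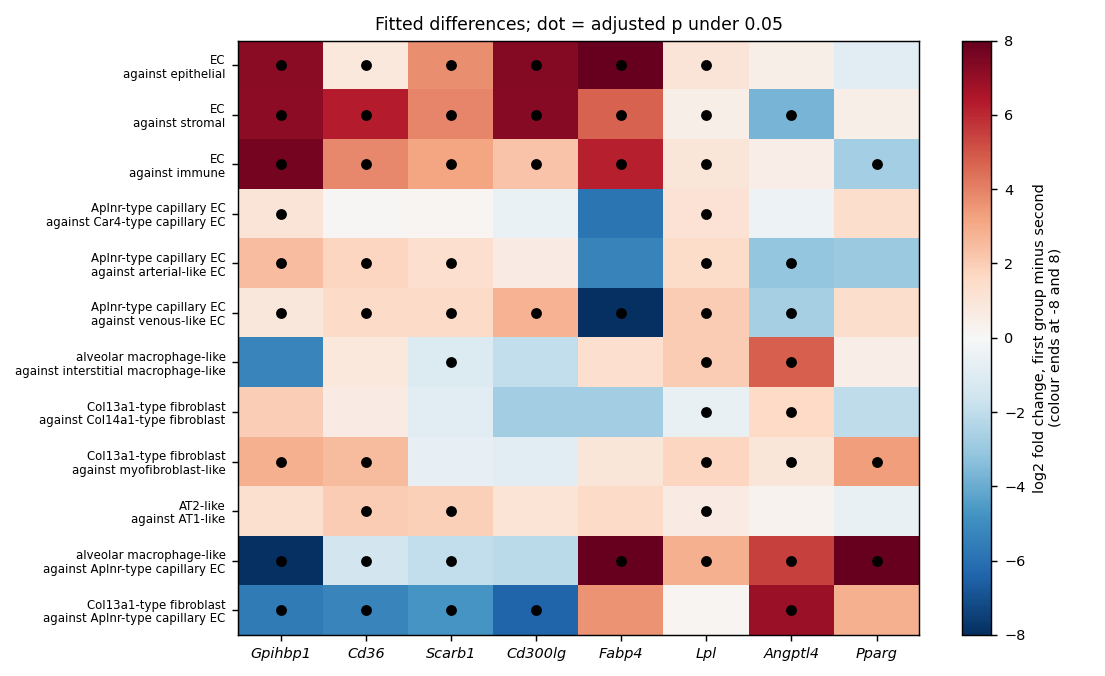
Fitted log2 fold changes of the 8 genes (columns) in 12 comparisons (rows), first group minus second, with a dot where the adjusted p was under 0.05 (edgeR). *Gpihbp1* and *Cd36* had positive values for ECs against epithelial, stromal, and immune cells, and the *Aplnr*-type and *Car4*-type capillary ECs have dots for *Gpihbp1* and *Lpl*.

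In other genes of lipid handling, a list of 70 genes without the 8, 62 were tested, and 3 were higher and 5 lower in *Aplnr*-type than in *Car4*-type cells. These were 12.9% of the list genes tested, against 8.58% of all genes. *Pcsk5*, a proprotein convertase, was higher in *Aplnr*-type cells (235 ± 16.9 against 67.7 ± 6.09 CPM, log2 fold change 1.84, SE 0.20), as were *Plin3*, a lipid droplet coat protein (0.99, SE 0.30), and Cavin1, a component of caveolae (0.70, SE 0.20). *Mgll*, a monoacylglycerol lipase, was lower (125 ± 8.17 against 344 ± 35.0 CPM, log2 fold change -1.43, SE 0.18), with *Acsl1*, which activates fatty acids (-1.07, SE 0.32), and *Stab1*, a scavenger receptor (-0.98, SE 0.17). The median log2 fold change was 0 over the list and 0.05 over all genes tested. Against arterial-like ECs, 3 list genes were higher and 6 lower in *Aplnr*-type cells, and against venous-like ECs 5 were higher and 7 lower. These were 14.5% and 19.4% of the list genes tested, against 15.6% and 13.9% of all genes (list medians 0, and 0.01 and 0.02 over all genes). *Acsl1* (log2 fold change 2.04, SE 0.57), *Abcg1* (1.58, SE 0.28), and *Acsl4* (1.18, SE 0.38) were higher than in arterial-like cells. *Apoe*, an apolipoprotein, was lower than in arterial-like (5.30 ± 0.877 against 361 ± 201 CPM) and venous-like cells (367 ± 177 CPM), by log2 fold changes of -6.12 and -6.14. *Fabp5*, a relative of *Fabp4*, was lower than in venous-like cells too (37.7 ± 6.36 against 359 ± 123 CPM, log2 fold change -3.29, SE 0.48), and *Hilpda*, an inhibitor of adipose triglyceride lipase, was higher (222 ± 20.4 against 27.4 ± 5.14 CPM, log2 fold change 2.99, SE 0.41).

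Between the macrophage types, 13 of 62 list genes were higher and 4 lower in alveolar macrophage-like cells, 27.4% of the list genes against 13.7% of all genes (median log2 fold change 0.20, and 0 over all genes). *Marco* (343 ± 104 CPM), *Mgll* (270.4 ± 131 CPM), and *Fabp1* (187 ± 88.9 CPM) had 0 UMIs in interstitial cells and were at least 43.6-fold, 34.4-fold, and 23.8-fold higher, and *Marco* was also one of the markers used for naming. *Apoe* was at 67.4 ± 55.4 against 8641 ± 2655 CPM (log2 fold change -6.67, SE 0.54), and *Abca1*, which exports cholesterol, was lower as well (-2.75, SE 0.38). In *Col13a1*-type fibroblasts, 18 list genes were higher and 4 lower than in *Col14a1*-type fibroblasts, and 19 were higher and 10 lower than in myofibroblast-like cells. These were 35.5% and 46.8% of the list genes, against 20.1% and 28.1% of all genes (list medians 0 and 0.17, and 0 and -0.02 over all genes). *Fabp3*, another fatty acid carrier, was at 117 ± 35.4 CPM in *Col13a1*-type and 1.22 ± 1.08 CPM in *Col14a1*-type fibroblasts (log2 fold change 6.25, SE 0.61) and had 0 UMIs in *Aplnr*-type ECs. In AT2-like against AT1-like cells, 16 list genes were higher and 9 lower, 40.3% of the list genes against 32.1% of all genes (median 0.36, and 0.10 over all genes), among them *Apoc1* (277 ± 57.1 against 82.4 ± 16.3 CPM) and, lower, *Cav1*, the main protein of caveolae (15.5 ± 12.5 against 741 ± 154 CPM, log2 fold change -5.30, SE 0.35). As given above, the AT1-like cells also held AT2-like marker UMIs, and their part in these levels was not tested.

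Over all genes, the patterns most like that of each member were sought by Pearson's correlation of log2(CPM + 10) over the 20 types, among 8739 genes with at least 50 CPM in some type. The types share 3 mice, and lymphatic-like ECs come from mouse 2 only (11 cells, 5 of them marked as doublets). Of the genes below, *Aplnr*, *Flt4*, and *Mmrn1* were also markers used for naming the types. *Gpihbp1* was most like *Emcn* (r = 0.990), *Aplnr* (r = 0.988), and *Bcl6b* (r = 0.983), all highest in lymphatic-like ECs. *Cd36* was most like *Smagp* (r = 0.894), *F11r* (r = 0.871), and *Ifih1* (r = 0.850), and *Lpl* like *Cln8* (r = 0.821), *Mertk* (r = 0.792), and *Mmp19* (r = 0.764). *Angptl4* was most like *Dact3* (r = 0.863), *Mamdc2* (r = 0.851), and *Rtn2* (r = 0.846), all highest in *Col13a1*-type fibroblasts, and *Pparg* like *Mrc1* (r = 0.924), *Trem2* (r = 0.896), and *Lilra5* (r = 0.888), all highest in alveolar macrophage-like cells. *Scarb1* was most like *Snx3* (r = 0.878), *Flt4* (r = 0.864), and *Parvb* (r = 0.853). *Fabp4* was most like *Clca3a1* (r = 0.841), *Apold1* (r = 0.807), and *Pkhd1l1* (r = 0.797), and *Cd300lg* like *Nr5a2* (r = 0.905), *Mmrn1* (r = 0.898), and *Aqp7* (r = 0.886), and apart from sharing the lymphatic-like ECs as their highest type these 6 were not examined further. Among the 8 genes, the most alike were *Scarb1* and *Cd300lg* (r = 0.832), *Gpihbp1* and *Scarb1* (r = 0.811), and *Cd36* and *Scarb1* (r = 0.724), while *Gpihbp1* and *Lpl* gave r = 0.05. *Scarb1* and *Cd300lg* were both highest in the lymphatic-like ECs (1431 and 431 CPM). They were at 67.5 and 33.5 CPM in dendritic-like cells and at 273 and 10.9 CPM in *Aplnr*-type cells. Correlations without the lymphatic-like ECs were not computed.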

How the data were processed

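scRNA-Seq counts of whole lung from 3 C57BL/6 mice were used. Per the labels, the authors processed 10x v3 libraries with Cell Ranger 3.0.2 and build mm10, and the deposited counts are raw UMIs per gene and cell. The use of strand in counting was not given in the sources used here. The 8 genes, the gene lists, and the tests were chosen with earlier results of these data known. The genes named in the text are the 8, up to 3 genes of the 70-gene list with the largest log2 fold change in each direction among those called, and the 3 genes most like each member.

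No library was a copy of another, since a chi-square statistic of their gene counts, divided by its degrees of freedom, was 36.3, 8.33, and 30.5 for the 3 pairs, and 12 cell barcodes occurred in more than 1 library. Cells were normalized with SCTransform (Seurat 5.3.0), clustered (resolution 0.8, 30 principal components, and 20 for a second round on ECs) without the 8 genes, of which 6 would otherwise have been among the 3000 variable genes. Clusters were named from marker lists by mean log2 fold (20 CPM added). The thresholds (at least 1 for a class or 2 for a type, and 3 markers detected) were chosen with the clusters in view. Doublets (200 cells) were marked by scrublet scores at 0.8% per 1000 cells and kept, because the automatic threshold marked under 0.5%. Sums of at least 10 cells per mouse and type were compared with edgeR 4.0.16 (quasi-likelihood, TMM, filterByExpr), all classes or types in 1 fit, in which all 8 genes passed the filter. Types of 1 mouse share an animal, and their deviations from the type means correlated with r from -0.08 to 0.25 (median 0.04 over 459 pairs; 0.05 to 0.19 for classes), and a model that adds the mouse as a replicate block was also fitted. On simulated data, 200 genes with a mean above 10 UMIs per sum were changed by a log2 fold change of 2. Of these, edgeR recovered 99.5% in ECs against epithelial cells (14250 genes) and 96.5% in *Aplnr*-type against *Car4*-type cells (13352 genes). DESeq2 recovered 96% and 90.5%. The simulated data held only the 2 groups compared and 1 spread for all genes, whereas the fits reported held all classes or types. These shares therefore need not hold in the fits reported. Smaller changes and genes with fewer UMIs were not simulated. DESeq2 1.42.0, other filters, resolutions, normalizations, removal of doublets, and leaving out each mouse were alternatives. Nothing says that the mice came from separate litters, and intervals and limits from 0 UMIs cover counting error only.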

Additional observations from a re-analysis of the deposited data

Results flagged for a closer look

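*Lpl* and *Pparg* were found at 644 ± 138 and 77.9 ± 8.33 CPM (mean ± SD, n = 3 mice) in 314 droplets that the comparisons did not use, because they had more than 20% mitochondrial UMIs. They are given here because the signal lies in data outside the measurement, above what 0 UMIs would allow. Of their alveolar macrophage markers, pooled over the mice, *Ear2* was at 1363 CPM against 1338 CPM in the cells kept, *Marco* at 456 against 357 CPM, *Chil3* at 11671 against 18543 CPM, and *Plet1* at 287 against 595 CPM. The droplets were picked by UMIs of these same markers, so that high marker levels follow from the choice and do not show what the droplets are. *Cd36* was at 205 ± 36.6 CPM in the droplets, against 500.1 ± 225 CPM in the cells kept. These CPM totals include mitochondrial UMIs, whose share was higher in the droplets.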

How the results depend on the processing

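Of the counts of genes past the threshold recomputed under alternatives, 137 stayed within 1.5 times the reported count and 11 did not. Of the values of single genes in a comparison, 1085 kept their call, and 38 lost and 22 gained a call at the same sign. A further 7 changed sign with a call in the main or the alternative fit. Changes of sign without a call in either fit were counted among the 1085. A value missing under an alternative entered none of these tallies. Most settings gave 96 values, but the filter of 500 genes and 10% mitochondrial UMIs gave 80. Resolution 0.4 gave 72, and the fit of only the 2 types compared gave 40. The 7 changes of sign were log2 fold changes of *Fabp4* of 4.00 (*Aplnr*-type against *Car4*-type), 4.89 (*Aplnr*-type against arterial-like), -0.32 (alveolar macrophage-like against *Aplnr*-type), and -5.93 (*Col13a1*-type against *Aplnr*-type) with doublets left out, where 8 lymphatic-like cells joined the *Aplnr*-type cells, and of *Cd36* in *Col13a1*-type fibroblasts of -2.82 (doublets left out) against *Col14a1*-type fibroblasts, where leaving out each mouse gave -2.52 (without mouse 3) to 4.47 (without mouse 2), and -0.34 (doublets left out) against myofibroblast-like cells. Without a filter on low counts, 5 genes passed between macrophage types and 4 between fibroblast types. Between fibroblast types, 1 passed with the filter of 500 genes and 10% mitochondrial UMIs, 4 with doublets left out, and 1 with only the 2 types in the fit. Between *Col13a1*-type fibroblasts and myofibroblast-like cells, 3 passed with doublets left out and 3 with only the 2 types in the fit, and between *Aplnr*-type and venous-like ECs 4 passed with DESeq2. With only the 2 types in the fit, genes removed by the filter on low counts were untested and counted as not passing. Between *Col13a1*-type fibroblasts and myofibroblast-like cells, no gene tested in that fit lost its call. The cause of the changes was otherwise not tested. Some of these settings use fewer cells or samples, but DESeq2 and the fit without a filter on low counts use the same sums. Leaving out each mouse in turn gave 4 to 6 genes for *Aplnr*-type against venous-like, 1 to 2 for *Aplnr*-type against *Car4*-type, and 3 to 4 for *Col13a1*-type against myofibroblast-like cells. The fit with the mouse as a replicate block changed no call and kept all 12 counts, with 6 genes in ECs against epithelial cells. Genes with few UMIs (*Cd300lg*, *Pparg*) and types with few cells (lymphatic-like, alveolar macrophage-like) limit what could be detected. Of the levels, 69 moved by more than their error and 115 did not. Subtracting the CPM of B-cell-like cells moved 58 of them. This count includes levels of *Cd36*, for which B-cell-like cells could not serve as background. In myofibroblast-like cells, for example, *Cd36* went from 6.58 to -60.6 CPM. Thinning to 1000 UMIs, which leaves out cells below that depth, moved 97 shares of cells by more than 1 SD and 71 by less.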

Other observations

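Beside the named types, an unnamed cluster of 111 cells led by *Top2a* and *Mki67*, 23 of them marked as doublets, held 4.55% of the *Gpihbp1* UMIs (324), 107 *Lpl* UMIs, and 616 *Cd36* UMIs, at 294, 97.1, and 559 CPM pooled over the mice. A further unnamed cluster (452 cells, median 841.5 UMIs), led by *Hpgd*, *Sox7*, and *Epas1*, held 168 *Fabp4* UMIs (374 CPM) and 113 *Gpihbp1* UMIs (251 CPM) but only 7 *Lpl* UMIs.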
